A study of Homo sapiens with 22 samples.

Results

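Dexamethasone (Dex) and compound A (CpdA), each given for 4 h, were compared directly with each other in MDA-MB-231 cells, an established triple-negative breast cancer (TNBC) cell line. The contrast was set by the sample labels and not by any measured value: the 2 Dex 4 h libraries stood against the 2 CpdA 4 h libraries, so that 4 of the 10 RNA libraries, and of the 22 samples in the series, carry it. A gene entered the test when 2 or more of the 10 RNA libraries reached an RPKM of 0.5, which left 12713 of 20668 gene symbols. RPKM is the read count of a gene scaled to transcript length and to the number of mapped reads.

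The series measured mRNA and genomic binding in this line after exposure to glucocorticoid receptor (GR) ligands. Cells had been kept in charcoal-stripped serum for 3 days, which removes steroids from the medium, and every group shared that pretreatment. The Dex 4 h group received 100 nM Dex and the CpdA 4 h group 10 μM CpdA, so the times matched but the doses did not, and ligand and dose cannot be told apart. Vehicle libraries (n = 2, no time point in the labels) were kept out of the contrast and served to tell which ligand had moved a gene. The names they were deposited under put the 2 at different times, so time and culture cannot be told apart between them. The 2 h libraries (n = 2 per ligand, same doses) served for the comparison of times. They also entered the fit behind the 4 h tests, where they added to the estimate of the variance only. All samples came from 1 cell line, and the biological duplicates of the ligand groups measure the spread between cultures of that line.

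GR, encoded by NR3C1, is a nuclear receptor that waits in the cytoplasm in a complex with heat shock protein chaperones. A steroid agonist such as Dex releases it into the nucleus, where it binds DNA elements and recruits coactivators to genes such as FKBP5, PER1 and TSC22D3, and where it also lowers the transcription of many inflammatory genes that AP-1 and NF-κB drive. CpdA is a nonsteroidal plant-derived ligand that has been described as a selective GR modulator able to repress inflammatory genes without switching on the classical induced set. Heat shock, antioxidant and integrated stress responses are separate programmes, run by HSF1, NRF2 and ATF4, that cells use against misfolded proteins, electrophiles and disturbed translation.

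At 4 h the ligands left the cells with distinct sets of transcripts. At a Benjamini-Hochberg false discovery rate (FDR) under 0.05 and a fold change of more than 2 in limma, 330 genes were higher with Dex (2.6% of the genes tested) and 224 were higher with CpdA (1.76%). The median difference was 1.53 on the log2 scale among the genes higher with Dex and -1.38 among those higher with CpdA, against -0.021 over all genes tested. A difference of more than 8-fold was reached by 36 genes higher with Dex and by 11 higher with CpdA. Without a fold-change limit, 2022 genes (15.9%) were higher with Dex and 2397 (18.9%) higher with CpdA. That total of 4419 fell to 2905 without CpdA 4 h replicate 1 and to 2804 without CpdA 4 h replicate 2. In a fit of the 4 libraries at 4 h alone the count at any fold was 3006. At 2-fold that fit gave 332 genes higher with Dex and 224 higher with CpdA. Calls below are at 2-fold, and counts at any fold are named as such and rest on this less stable limit. Counts of called genes in a list are to be read beside 2.6% with Dex and 1.76% with CpdA over all genes. Counts at any fold are to be read beside 15.9% and 18.9%.

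Throughout, differences are Dex minus CpdA on the scale log2(RPKM + 0.1) with the standard error (SE) and n = 2 per group, adjusted p-values come from limma over all 12713 genes, and "called" means past the FDR and the 2-fold limit. The pseudocount of 0.1 understates the change of genes with low RPKM. The 2 values of a called gene did not overlap between the ligands in any of the 554 cases, which carries little weight, since 63.5% of all genes tested did not overlap either. A permutation of 2 libraries against 2 cannot reach 0.05, so each test rests on the variance model. The duplicates differed with a standard deviation of 0.272 on the log2 scale at Dex 4 h and 0.196 at CpdA 4 h. Depth relative to Dex 4 h replicate 1, estimated from the most frequent ratio of nonzero RPKM values to that library, was 1.037 in the other Dex library and 1.094 and 1.099 in the CpdA libraries. Read totals were not in the files used here, so no counting interval is given. In bulk RNA, fewer cells with a transcript and less of it per cell cannot be told apart. VIM, CD44, EGFR, CAV1 and AXL, which mark this mesenchymal line, all passed the filter, while ESR1 and PGR, the hormone receptors that TNBC lacks, did not. CD68, listed as a marker of other cells, passed as well, and 9 of the 15 markers passed in all. The rest of the 15 were ERBB2, GATA3, CDH1 and EPCAM, listed as low or absent, and PTPRC, PECAM1 and ALB of other cells. Some of these passed too, so passing the filter does not by itself separate the expected markers from the others. No gene of the 9 cell type markers that passed was called.

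**Figure D1:**
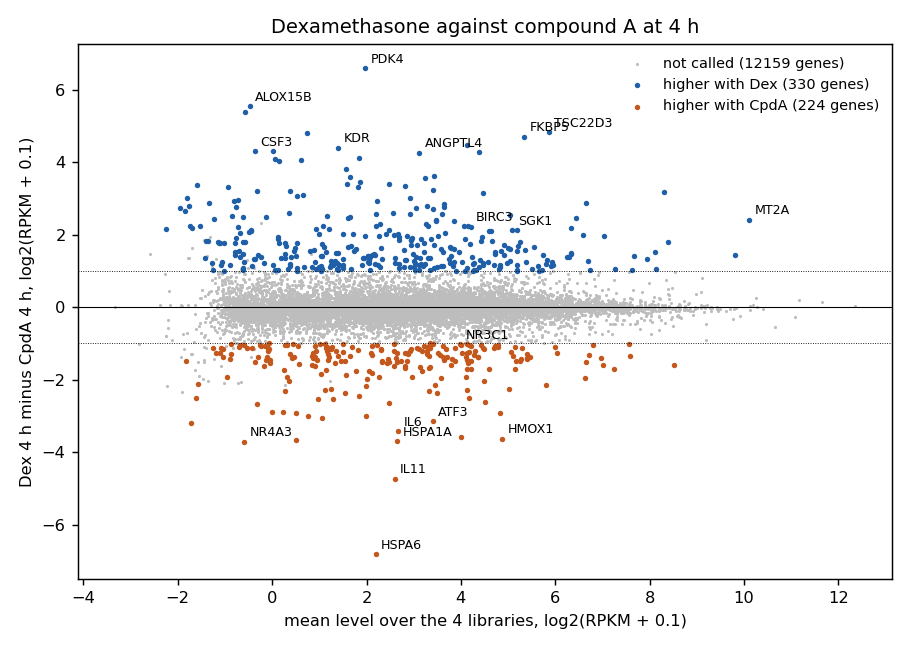
Each point is 1 of 12713 genes, with its mean level over the 4 libraries at 4 h on the horizontal axis and the Dex minus CpdA difference on the vertical axis, both on the scale log2(RPKM + 0.1). Blue points are the 330 genes called higher with Dex, orange points the 224 called higher with CpdA, and dotted lines mark a 2-fold difference. PDK4 stands at the top (6.59) and HSPA6 at the bottom (-6.83).

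The genes higher with Dex are given first. PDK4, the kinase that shuts pyruvate dehydrogenase and spares glucose (chr7:95212811-95225828 in GRCh37), had RPKM values of 37.5 and 39.1 with Dex and of 0.333 and 0.268 with CpdA, a difference of 6.59 ± 0.11 (adjusted p = 1.9e-08). ALOX15B, a lipoxygenase that oxygenates arachidonic acid, was read at 4.95 and 4.69 with Dex and at 0.0124 and 0 with CpdA (5.54 ± 0.19, adjusted p = 4.4e-07). Its CpdA libraries thus held next to no reads of the gene, as did vehicle (0.0144 and 0.0142). TSC22D3, which encodes the anti-inflammatory leucine zipper protein GILZ (chrX:106956451-107020572), stood at 315 and 305 with Dex and 10.5 and 11.3 with CpdA (4.82 ± 0.045, adjusted p = 1.4e-09). FKBP5, a cochaperone that restrains GR (chr6:35541362-35696360), stood at 203 and 212 with Dex and at 7.805 and 7.96 with CpdA (4.699 ± 0.039, adjusted p = 1.2e-09). Vehicle stood at 9.79 and 8.22 for TSC22D3 and 5.94 and 7.06 for FKBP5, less than 1.5-fold below the mean of CpdA on the log scale.

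The vasoconstrictor peptide gene EDN2 had values of 85.2 and 78.6 with Dex and 3.5 and 3.75 with CpdA (4.46 ± 0.059). KDR, the main VEGF receptor, was at 10.7 and 13.6 with Dex and 0.454 and 0.493 with CpdA (4.402 ± 0.13), and CSF3, the granulocyte growth factor, at 3.75 and 3.01 with Dex and 0.0859 and 0.0665 with CpdA (4.297 ± 0.16). ANGPTL4, a secreted inhibitor of lipoprotein lipase, gave 41.9 and 34.3 with Dex against 2.14 and 1.66 with CpdA (4.26 ± 0.16). All CpdA values of KDR, CSF3 and ANGPTL4 lay below both vehicle values as well. PNMT, the enzyme that makes adrenaline from noradrenaline, was read at 4.999 and 3.87 with Dex and 0.113 and 0.144 with CpdA (4.304 ± 0.25). The other large differences were in FGD4, an activator of CDC42 (4.797 ± 0.14), the small membrane protein gene SMIM3 (4.26 ± 0.082), the transcription factor TFCP2L1 (4.13 ± 0.091), the sphingosine-1-phosphate phosphatase SGPP2 (4.098 ± 0.16), TNFAIP8L3 (4.06 ± 0.18) and the pseudogene ZDHHC8P1 (5.396 ± 0.20), whose reads may be shared with its parent gene. Adjusted p-values of these 11 genes lay between 6.6e-09 (EDN2) and 8.1e-06 (PNMT).

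**Figure D2:**
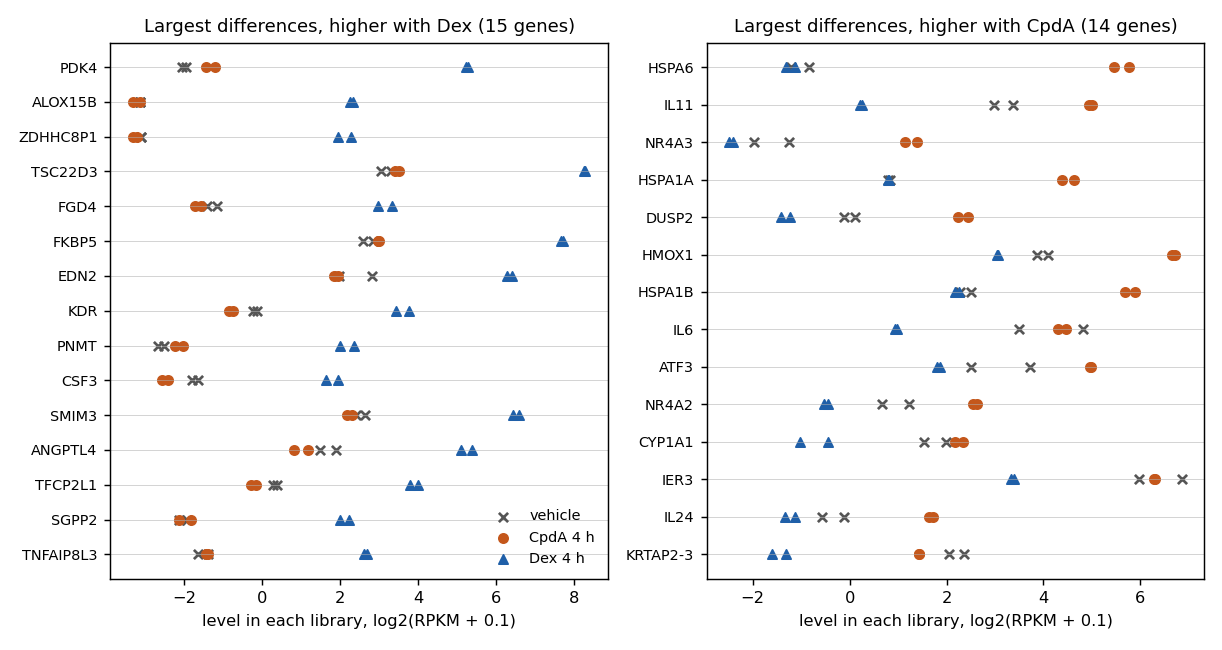
Level of the genes with the largest differences, 15 higher with Dex and 14 higher with CpdA, as log2(RPKM + 0.1), with 1 symbol for each library (2 per group): blue triangles for Dex 4 h, orange circles for CpdA 4 h and grey crosses for vehicle. In the left panel the triangles stand apart from circles and crosses. In the right panel the crosses lie near the triangles for HSPA6 and HSPA1A, near the circles for IL6, CYP1A1 and IER3, and between them for IL11.

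Textbook glucocorticoid targets separated the ligands almost as a block. Of 33 such genes in the files 30 passed the filter, of which 27 were called higher with Dex and none with CpdA, against 2.6% and 1.76% of all genes. Their median difference was 2.22, and against vehicle 28 were raised by Dex and 6 by CpdA at an FDR under 0.05 and a fold change of more than 1.5. Over all genes tested these shares were 3.72% and 1.42%, and CpdA lowered 2 members of the list. This list holds genes known to be induced by glucocorticoids and was chosen with earlier results of these data known, so its direction is no independent evidence. PER1, a clock repressor, had 38.6 and 36.6 with Dex and 2.88 and 3.02 with CpdA (3.63 ± 0.056, adjusted p = 1.5e-08). The transcription factor gene KLF9 had 10.3 and 11.1 with Dex and 0.829 and 0.777 with CpdA (3.58 ± 0.094), KLF15 had 12.6 and 12.96 with Dex and 1.59 and 1.602 with CpdA (2.92 ± 0.059), and CEBPB had 207 and 198 with Dex and 34.9 and 38.4 with CpdA (2.46 ± 0.064). SGK1, a kinase that governs sodium channels and cell survival, stood at 71.8 and 69.8 with Dex and 16.97 and 15.5 with CpdA (2.12 ± 0.065, adjusted p = 2.7e-07). ZBTB16, a zinc finger repressor, was read at 0.525 and 0.602 with Dex and was listed at 0 in both CpdA and both vehicle libraries.

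CpdA was not without effect on this set. PER1, ZFP36, DDIT4, DUSP1 and PDK4 were raised over vehicle by CpdA too, with a much larger Dex change beside it. For DUSP1, the phosphatase that turns off p38 and JNK, the difference from vehicle was 3.24 with Dex and 1.85 with CpdA, and the levels were 122 and 125 with Dex, 46.8 and 47.4 with CpdA and 14.6 and 11.6 in vehicle. DDIT4, an inhibitor of mTORC1 that stress also induces, showed 335 and 329 with Dex, 123 and 126 with CpdA and 53.8 and 49.1 in vehicle. ZFP36, which destabilizes inflammatory mRNAs, showed 55.2 and 47.5 with Dex, 11.8 and 11.9 with CpdA and 6.19 and 8.48 in vehicle.

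Metallothioneins, the small zinc- and copper-binding proteins, were called higher with Dex for 4 of the 8 family and regulator genes that passed and with CpdA for 0, and the median difference of the 8 was 1.45. The zinc exporter gene SLC30A1 was higher with CpdA below 2-fold (-0.65), and the regulator MTF1, at -0.23, did not pass (adjusted p = 0.22). MT2A stood at 2824 and 2295 with Dex and 483 and 471 with CpdA (2.42 ± 0.09, adjusted p = 6.9e-07), MT1E at 1024 and 891 with Dex and 106 and 105 with CpdA (3.18 ± 0.063) and MT1X at 280.5 and 261 with Dex and 36.7 and 37.4 with CpdA (2.87 ± 0.042). MT1F, in the same gene cluster, differed by 0.28 ± 0.058, below 2-fold. The MT1 genes are close copies of each other, so how their reads were split is uncertain. MT1M, at 1.43 and 0.971 with Dex against 0.345 and 0.114 with CpdA, was called at 2.05 ± 0.39 but not with a pseudocount of 1 (2.05 became 0.84).

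Heat shock genes stood at the other end. Of 30 that passed, 7 were called higher with CpdA and 0 with Dex, and 26 were higher with CpdA at any fold against 1 with Dex, beside 18.9% and 15.9% of all genes. HSPA6, the strictly inducible HSP70 (chr1:161494330-161496684), was read at 0.3599 and 0.302 with Dex and at 43.6 and 54.4 with CpdA (-6.83 ± 0.14, adjusted p = 4e-08). Vehicle was at 0.331 and 0.457, close to the Dex libraries. HSPA1A stood at 1.67 and 1.64 with Dex and 20.8 and 24.6 with CpdA (-3.69 ± 0.086) and HSPA1B at 4.39 and 4.71 with Dex and 51.5 and 59.6 with CpdA (-3.58 ± 0.083), but these are near-identical neighbouring copies and their split is uncertain. DNAJB1, the HSP40 partner of HSP70, had 118 and 120.5 with Dex and 287 and 323 with CpdA (-1.35 ± 0.062). HSPH1, a nucleotide exchange factor for HSP70, HSPB8, a small chaperone of selective autophagy, and ZFAND2A, a proteasome adaptor, completed the called genes (-1.48 ± 0.089, -1.92 ± 0.085 and -1.11 ± 0.037). The chaperones of the unliganded receptor differed less than 2-fold: HSP90AA1 stood at 233 and 235 with Dex and 357 and 377 with CpdA (-0.65 ± 0.041), and HSP90AB1 at 497 and 495 with Dex and 668 and 701 with CpdA (-0.46 ± 0.046). DNAJB4, another HSP40 protein, was the 1 member higher with Dex past the FDR (0.75 ± 0.054, adjusted p = 2.7e-05), below 2-fold.

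HSPA6, HSPA1A, HSPA1B and HSPB8 carry a heat shock element core just upstream of their start. The stretches below are 80 bases each of the strand of transcription, 5′ to 3′, from RefSeq starts in GRCh38.p14, a newer build than the hg19 of the study, and capitals mark GAANNTTC.

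HSPA6: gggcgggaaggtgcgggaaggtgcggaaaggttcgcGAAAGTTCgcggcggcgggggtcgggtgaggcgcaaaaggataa
HSPA1A: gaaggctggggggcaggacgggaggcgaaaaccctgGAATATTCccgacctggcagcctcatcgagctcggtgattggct
HSPA1B: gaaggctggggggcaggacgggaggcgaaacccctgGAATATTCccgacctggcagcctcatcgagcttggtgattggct
HSPB8: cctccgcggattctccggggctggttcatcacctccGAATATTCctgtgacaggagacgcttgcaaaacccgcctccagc

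They lie at chr1:161524435-161524514, plus strand (HSPA6), chr6:31815401-31815480, plus strand (HSPA1A), chr6:31827597-31827676, plus strand (HSPA1B) and chr12:119178807-119178886, plus strand (HSPB8). The capitals begin 69, 106, 105 and 88 bases before the start. Over the 250 bases before each listed start, this palindrome occurred in 6.02% of the 266 windows of genes called higher with CpdA, in 4.51% of the 377 windows of genes called higher with Dex and in 4.24% of the 13602 windows of all genes tested. A match describes letters and not binding, and windows of 1 gene with several starts can overlap.

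Antioxidant genes of the NRF2 programme moved the same way. Of 29 that passed, 7 were called higher with CpdA and 0 with Dex, with 22 and 1 at any fold. HMOX1, which degrades heme (chr22:35776354-35790207), stood at 8.16 and 8.26 with Dex and 100.2 and 105 with CpdA, with vehicle between them at 14.4 and 17.04 (-3.63 ± 0.043, adjusted p = 3.9e-09). OSGIN1, an oxidative stress growth inhibitor, had 9.58 and 8.72 with Dex and 57.02 and 56.8 with CpdA (-2.63 ± 0.062), and SRXN1, which repairs oxidized peroxiredoxins, had 50.5 and 50.3 with Dex and 197 and 192 with CpdA (-1.95 ± 0.039). TXNRD1, thioredoxin reductase, reached 640 and 624 with CpdA against 200.2 and 220.5 with Dex (-1.59 ± 0.052). GCLM, the regulatory subunit for glutathione synthesis, SLC7A11, the cystine importer, and the autophagy receptor SQSTM1 were the remaining 3 (-1.696 ± 0.072, -1.696 ± 0.18 and -1.03 ± 0.045). NQO1, a quinone reductase often used to read this programme, was higher with CpdA by less than 2-fold, at 87.6 and 85.9 with CpdA against 60.5 and 60.1 with Dex (-0.52 ± 0.038, adjusted p = 2.8e-05).

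Genes of the integrated stress and unfolded protein responses were called higher with CpdA in 10 of 31 cases, and 25 of 31 were so at any fold. Against vehicle 17 of the 31 were raised by CpdA and 2 by Dex (FDR under 0.05, fold change of more than 1.5), beside 1.42% and 3.72% of all genes. HERPUD1, a component of endoplasmic reticulum degradation, had 72.8 and 75.2 with Dex and 232 and 219 with CpdA (-1.61 ± 0.048), DDIT3, the transcription factor CHOP, had 21.5 and 23.9 with Dex and 66.1 and 62.1 with CpdA (-1.496 ± 0.059), and CHAC1, which breaks down glutathione, had 10.4 and 11.6 with Dex and 30.4 and 30.9 with CpdA (-1.48 ± 0.062). ATF3, a stress-induced repressor, showed 3.37 and 3.56 with Dex and 31.6 and 31.1 with CpdA (-3.14 ± 0.047), but its 2 vehicle libraries lay far apart at 13.1 and 5.58. The chaperones DNAJB9 and SDF2L1, the eIF2α phosphatase subunit PPP1R15A, the secreted GDF15 and the stress sensor SESN2 were called as well, between -1.26 (SESN2) and -1.45 (DNAJB9). DDIT4 was called in the opposite direction (1.41 ± 0.042) and belongs to the glucocorticoid list too.

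Immediate early transcription factors, which respond to growth factors and stress within minutes, were called higher with CpdA in 11 of 31 cases and higher with Dex in 0. NR4A3, an orphan nuclear receptor, was read at 0.0789 and 0.0874 with Dex and 2.095 and 2.53 with CpdA (-3.71 ± 0.14), and its relative NR4A2 at 0.596 and 0.635 with Dex and 6.05 and 5.73 with CpdA (-3.07 ± 0.095). FOS stood at 1.74 and 1.76 with Dex and 8.21 and 8.43 with CpdA (-2.18 ± 0.054), JUN at 21.4 and 21.9 with Dex and 51.8 and 51.2 with CpdA (-1.25 ± 0.045) and FOSL1, the FOS relative with the highest level here, at 82.9 and 86.2 with Dex and 276 and 273 with CpdA (-1.696 ± 0.05). These partners of AP-1 differed in what lay behind the contrast. FOS was raised by CpdA (2.36 over vehicle) and was not called with Dex (0.18), whereas JUN and FOSL1 were lowered by Dex (-1.57 and -1.96) with CpdA at -0.33 and -0.26, neither past 1.5-fold. IER3, an early survival gene, showed 10.02 and 10.4 with Dex, 78.5 and 77.95 with CpdA and 116 and 62.9 in vehicle (-2.92 ± 0.067). EGR1, at 5.8 and 7.38 with Dex and 13.2 and 15.2 with CpdA, differed by -1.11 ± 0.16 (adjusted p = 0.0012), and by -0.93 without Dex 4 h replicate 1, which ended its call.

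**Figure D3:**
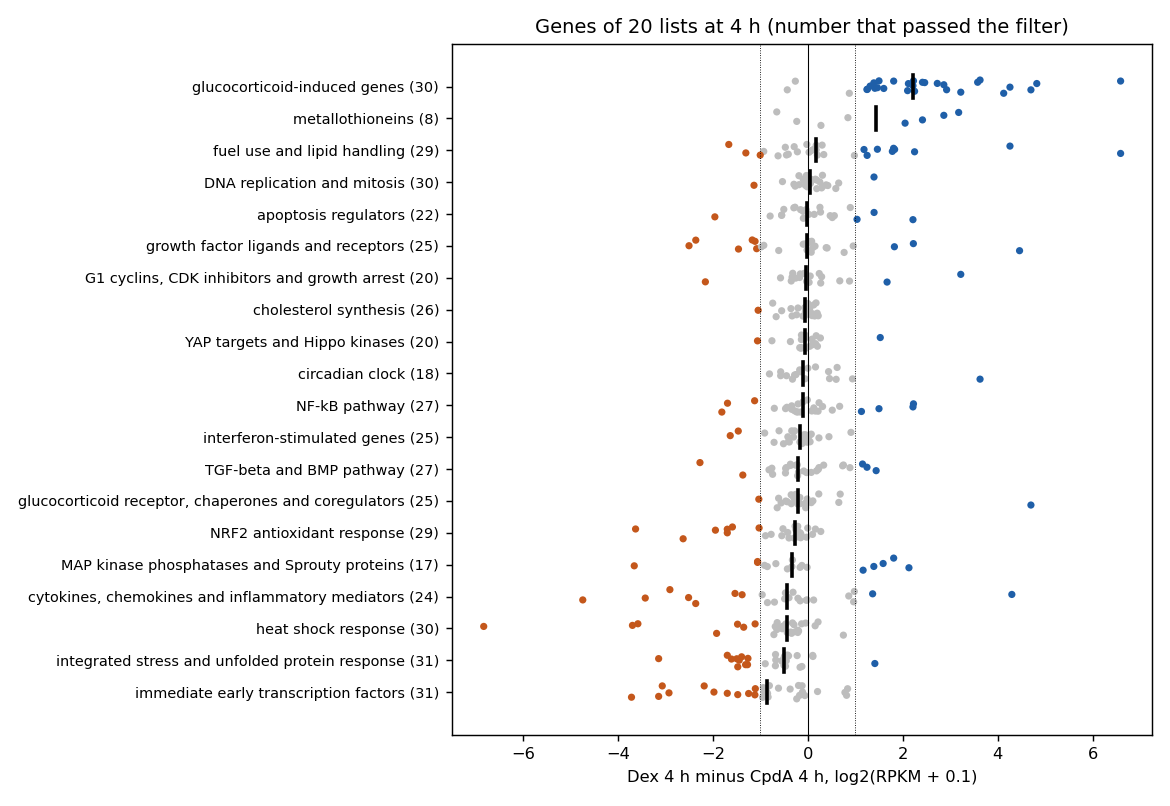
Dex minus CpdA difference on the scale log2(RPKM + 0.1) for each gene of 20 gene lists that passed the filter (number in parentheses), with blue for called higher with Dex, orange for called higher with CpdA, grey for not called, and a black bar at the median. Glucocorticoid-induced genes lie to the right (median 2.22), and immediate early, stress, heat shock and cytokine genes extend to the left.

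Cytokine and chemokine genes were called higher with CpdA in 7 of 24 cases and higher with Dex in 2, with a median difference of -0.43. IL11, a cytokine of the IL-6 family (chr19:55875750-55881831), stood at 1.05 and 1.08 with Dex, 30.6 and 31.8 with CpdA and 10.2 and 7.796 in vehicle (-4.74 ± 0.047, adjusted p = 1.6e-09). IL6 stood at 1.82 and 1.86 with Dex and 21.97 and 19.6 with CpdA (-3.42 ± 0.069, adjusted p = 4e-08), with vehicle libraries at 28.1 and 11.2. CXCL8, the neutrophil chemokine, had 4.85 and 4.896 with Dex and 26.6 and 24.3 with CpdA (-2.36 ± 0.084), IL24 had 0.297 and 0.3604 with Dex and 3.18 and 3.03 with CpdA (-2.905 ± 0.13), and LIF had 12.7 and 12.7 with Dex and 33.5 and 33.1 with CpdA (-1.38 ± 0.06). For IL6, CXCL8 and LIF the CpdA values were not called different from vehicle, while IL11 and IL24 were raised by CpdA. CCL2, the monocyte chemokine, and CSF2 were lowered by both ligands and further by Dex: CSF2 stood at 0.352 and 0.612 with Dex, 1.55 and 1.54 with CpdA and 12.8 and 6.08 in vehicle. Of the pair called higher with Dex, CSF3 is given above and SAA1, an acute phase protein with a near-identical copy, stood at 17.3 and 14.3 with Dex against 6.45 and 5.65 with CpdA (1.36 ± 0.11).

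Promoter stretches of 3 genes from these groups hold an AP-1 site, marked by capitals (TGANTCA, either strand), in the same build and orientation as above.

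IL11: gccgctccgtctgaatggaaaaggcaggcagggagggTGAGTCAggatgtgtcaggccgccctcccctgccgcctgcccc
OSGIN1: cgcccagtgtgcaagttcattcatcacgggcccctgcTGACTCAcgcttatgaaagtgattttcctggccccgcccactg
CXCL8: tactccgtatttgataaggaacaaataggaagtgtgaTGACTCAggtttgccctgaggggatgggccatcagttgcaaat

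They lie at chr19:55370517-55370596, minus strand (IL11), chr16:83953106-83953185, plus strand (OSGIN1) and chr4:73740395-73740474, plus strand (CXCL8). This site occurred in 12.4% of the windows of genes called higher with CpdA, in 6.1% of those called higher with Dex and in 4.42% of all windows. The core of a CRE, TGACGTCA, which can overlap the AP-1 letters in part, was found in 3.01%, 0.796% and 2.53% of the same windows, and the core of an ATF4 composite site, TGATGNAA, in 3.01%, 1.33% and 1.6%. For TGACNNNGC, the core of the NRF2 element, the shares were 9.02%, 12.7% and 12.0%.

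NF-κB pathway genes were split between the ligands, with 4 of 27 called higher with Dex and 3 with CpdA, beside 2.6% and 1.76% of all genes. On the Dex side stood TNFAIP3, the deubiquitinase A20, at 9.68 and 9.996 with Dex against 2.17 and 1.89 with CpdA (2.23 ± 0.084), NFKBIA, the inhibitor IκBα, at 143 and 128 with Dex against 48.7 and 46.96 with CpdA (1.499 ± 0.057), BIRC3, a ubiquitin ligase that blocks cell death, at 36.7 and 43.03 with Dex against 8.65 and 8.33 with CpdA (2.21 ± 0.072), and the kinase RIPK2 (1.13 ± 0.064). On the CpdA side stood TRAF1 (-1.81 ± 0.078), the atypical IκB protein BCL3 (-1.69 ± 0.087) and MAP3K14, the kinase of the noncanonical pathway (-1.12 ± 0.041). Against vehicle TNFAIP3 was raised by Dex (1.203) and lowered by CpdA (-1.02). TRAF1, BCL3 and MAP3K14 were lowered by Dex, between -0.74 and -2.38. The 2 vehicle libraries were far apart for BIRC3 (17.1 and 8.72) and BCL3 (18.7 and 9.29).

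Capitals in the next stretches mark an NF-κB consensus match in the promoters of 3 genes higher with Dex and of IL6, which was higher with CpdA, to show that the same letters occur on both sides of the contrast.

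BIRC3: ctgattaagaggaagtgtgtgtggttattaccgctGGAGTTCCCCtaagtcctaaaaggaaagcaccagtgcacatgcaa
TNFAIP3: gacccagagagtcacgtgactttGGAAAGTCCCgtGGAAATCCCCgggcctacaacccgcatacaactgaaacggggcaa
NFKBIA: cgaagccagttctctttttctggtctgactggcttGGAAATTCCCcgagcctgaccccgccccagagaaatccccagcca
IL6: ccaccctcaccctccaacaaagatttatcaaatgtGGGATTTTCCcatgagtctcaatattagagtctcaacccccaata

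They lie at chr11:102317314-102317393, plus strand (BIRC3), chr6:137867169-137867248, plus strand (TNFAIP3), chr14:35404786-35404865, minus strand (NFKBIA) and chr7:22727092-22727171, plus strand (IL6). The consensus was found in 7.43% of windows of genes higher with Dex, 8.27% of those higher with CpdA and 6.03% of all windows.

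The glucocorticoid receptor core, ACANNNTGT, occurred in 3.98% of windows of genes called higher with Dex (15 of 377). The share was 1.88% of those called higher with CpdA (5 of 266) and 2.51% of all windows. The study located the vast majority of ligand-responsive GR binding outside promoters, so windows before a start reach little of it. NEDD9, IRS2 and NPR3, all higher with Dex, are shown with the core in capitals. NEDD9 is a scaffold of focal adhesions that the study followed, IRS2 an insulin receptor substrate and NPR3 the natriuretic peptide clearance receptor, picked after its values were seen.

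NEDD9: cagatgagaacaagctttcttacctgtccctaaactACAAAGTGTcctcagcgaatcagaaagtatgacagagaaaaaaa
IRS2: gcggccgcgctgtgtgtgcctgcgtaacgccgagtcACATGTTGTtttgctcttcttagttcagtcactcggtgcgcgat
NPR3: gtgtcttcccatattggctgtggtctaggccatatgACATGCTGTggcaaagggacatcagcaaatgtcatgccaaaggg

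They lie at chr6:11382415-11382494, minus strand (NEDD9, in the windows of 2 of its 3 listed starts), chr13:109786586-109786665, minus strand (IRS2) and chr5:32690711-32690790, plus strand (NPR3). NPR3 was read at 1.37 and 1.56 with Dex and 0.111 and 0.104 with CpdA (2.91 ± 0.18), and IRS2 at 35.1 and 42.8 with Dex and 7.84 and 8.32 with CpdA (2.25 ± 0.085). RefSeq windows matched 230 of the 330 genes higher with Dex and 157 of the 224 higher with CpdA.

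Feedback inhibitors of MAP kinase signalling divided by member. Of 17 that passed, 5 were called higher with Dex and 3 with CpdA. SPRY4, a Sprouty inhibitor of receptor tyrosine kinases, had 69.8 and 84.5 with Dex, 17.1 and 17.8 with CpdA and 40.3 and 29.6 in vehicle (2.13 ± 0.099), and ERRFI1, an inhibitor of EGFR, had 603 and 653 with Dex, 181 and 177 with CpdA and 198 and 138 in vehicle (1.81 ± 0.049). DUSP6, the ERK phosphatase, showed 67.4 and 74.6 with Dex and 23.3 and 23.8 with CpdA (1.59 ± 0.052). Its vehicle values of 69.7 and 57.2 lay near those of Dex, so this difference, like that of SPRY1, came with a fall under CpdA. DUSP2, a nuclear ERK and p38 phosphatase, went the other way with 0.329 and 0.275 with Dex and 4.61 and 5.32 with CpdA (-3.66 ± 0.11). DUSP4 (-1.06 ± 0.052) and DUSP8 (-1.06 ± 0.099) were called higher with CpdA close to the 2-fold limit, and DUSP4 fell short of it without Dex 4 h replicate 1 (-0.98) and DUSP8 without CpdA 4 h replicate 1 (-0.998).

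Growth factor genes showed endothelins on the Dex side and EGF and VEGF family ligands on the CpdA side, with 3 and 6 of 25 called. EDN1 stood at 37.7 and 34.4 with Dex and 8.05 and 7.23 with CpdA (2.22 ± 0.079), beside EDN2 above and the receptor EDNRA at 0.565 and 0.712 with Dex and 0.0813 and 0.138 with CpdA (1.82 ± 0.23). HBEGF, a membrane-shed EGFR ligand, stood at 7.82 and 7.12 with Dex, 44.4 and 41.2 with CpdA and 84.2 and 44.98 in vehicle (-2.502 ± 0.065). EREG, AREG and TGFA, other EGFR ligands, and VEGFC and VEGFA, which drive growth of lymphatic and blood vessels, differed by -2.36, -1.46, -1.08, -1.17 and -1.11. Outside the lists, CYP1A1, a hydrocarbon-metabolizing enzyme, stood at 0.389 and 0.635 with Dex and 4.41 and 4.97 with CpdA (-2.996 ± 0.20), and KRTAP2-3, a keratin-associated protein of a multigene family, at 0.303 and 0.2298 with Dex and 2.61 and 2.58 with CpdA (-2.89 ± 0.25).

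Genes of fuel use and lipid handling were called higher with Dex in 9 of 29 cases and higher with CpdA in 3. ACSL1, which activates fatty acids, stood at 45.6 and 49.6 with Dex and 13.3 and 13.3 with CpdA (1.83 ± 0.046), PLIN2, the coat of lipid droplets, at 73.1 and 69.3 with Dex and 20.5 and 20.1 with CpdA (1.81 ± 0.047), and GLUL, glutamine synthetase, at 43.1 and 44.2 with Dex and 15.96 and 15.5 with CpdA (1.47 ± 0.036). The fasting regulators FOXO1 and FOXO3 differed by 1.25 ± 0.11 and 1.18 ± 0.081. DGAT2, which makes triglycerides, was at 2.04 and 1.86 with Dex and 0.467 and 0.527 with CpdA (1.78 ± 0.11), with vehicle at 2.32 and 2.12. On the CpdA side were the glycolytic HK2, hexokinase 2, at 4.95 and 6.43 with Dex and 17.1 and 19.2 with CpdA (-1.67 ± 0.12), the lipase inhibitor G0S2 (-1.305 ± 0.045), and PFKFB3 at the limit (-1.002 ± 0.043), which was not called without Dex 4 h replicate 2 (-0.98) or CpdA 4 h replicate 1 (-0.99), or after median scaling (-0.998) or quantile normalization (-0.97). Of 18 clock genes only PER1 was called, and of 26 cholesterol synthesis genes only INSIG1, a brake on sterol synthesis, at 75.5 and 79.99 with Dex and 159.8 and 161 with CpdA (-1.05 ± 0.05), which for both lists is near the 2.6% and 1.76% called over all genes.

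In the replication and mitosis list, 1 of 30 was higher with Dex, CDC20, an activator of the anaphase complex, at 133 and 121 with Dex against 47.4 and 49.1 with CpdA (1.39 ± 0.05), and 1 was higher with CpdA, the replication licensing factor CDC6, at 38.8 and 38.7 with CpdA against 16.5 and 18.7 with Dex (-1.13 ± 0.066), shares near the 2.6% and 1.76% of all genes. Among 20 G1 regulators, of which 2 were called higher with Dex and 1 with CpdA, CDKN1C, the CDK inhibitor p57, stood at 33.7 and 30.6 with Dex and 3.31 and 3.401 with CpdA (3.22 ± 0.062), GADD45B differed by 1.67 ± 0.066, and PLK2, a kinase of centriole duplication, stood at 26.8 and 25.7 with Dex and 117 and 117 with CpdA (-2.16 ± 0.042). Beside 2.6% and 1.76% of all genes, 3 of 22 apoptosis regulators were called higher with Dex and 1 with CpdA. TNFSF10, the death ligand TRAIL, was the latter, at 23.4 and 23.5 with CpdA against 6.56 and 5.41 with Dex (-1.96 ± 0.10), and BIRC3, BCL2L1 and BMF were the former. BCL2L1, which encodes the survival protein BCL-XL, stood at 417 and 385 with Dex and 201 and 189 with CpdA (1.04 ± 0.058), and fell below the 2-fold limit without Dex 4 h replicate 1 (0.98) or CpdA 4 h replicate 2 (0.99). BMF promotes death and was at 3.41 and 3.17 with Dex and 1.17 and 1.21 with CpdA (1.396 ± 0.082), vehicle being at 3.64 and 2.99.

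In the TGF-β and BMP list 3 of 27 genes were called higher with Dex and 2 with CpdA, beside 2.6% and 1.76% of all genes. The receptor TGFBR2 reached 90.9 and 95.5 with Dex against 39.4 and 39.1 with CpdA (1.25 ± 0.042), and ID1, a BMP-induced inhibitor of differentiation, 14.5 and 11.3 with Dex against 5.93 and 5.48 with CpdA (1.15 ± 0.13, 0.97 without Dex 4 h replicate 1). FST, which traps activin, stood at 75.3 and 67.8 with CpdA against 15.6 and 13.9 with Dex (-2.27 ± 0.071), and INHBA, the activin subunit it binds, at 2.85 and 3.03 with CpdA against 1.02 and 1.14 with Dex (-1.37 ± 0.13). Of 20 YAP targets and Hippo kinases 1 was called in each direction, near the 2.6% and 1.76% of all genes, and 15 did not pass the FDR. ANKRD1 was higher with Dex at 492 and 455 with Dex against 164 and 165 with CpdA (1.53 ± 0.051). The kinase NUAK2 was called higher with CpdA (-1.06 ± 0.15), but not without Dex 4 h replicate 1 (-0.86) or CpdA 4 h replicate 1 (-0.98), or in the fit of all 10 libraries (adjusted p = 0.091). Of 25 interferon-stimulated genes, IFIT2 (-1.63 ± 0.059) and GBP1 (-1.47 ± 0.062) were higher with CpdA and 0 were called higher with Dex, beside 1.76% and 2.6% of all genes.

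The receptor gene itself was lower with Dex. NR3C1 stood at 9.96 and 12.1 with Dex, 22.96 and 22.1 with CpdA and 22.9 and 20.4 in vehicle (-1.03 ± 0.081, adjusted p = 4.3e-05), and its difference from vehicle was -0.97 for Dex and 0.06 for CpdA. It lay at the 2-fold limit and was not called without Dex 4 h replicate 1 (-0.90) or with a pseudocount of 1. Among the other 24 receptor, chaperone and coregulator genes that passed, FKBP5 alone was called. With NR3C1 that makes 1 of 25 in each direction, near the 2.6% and 1.76% of all genes. The study followed 5 genes near GR binding sites, and 4 of them were called higher with Dex. BIRC3 and NFKBIA are given above. PTPN1, a tyrosine phosphatase, stood at 162 and 157 with Dex and 68.1 and 64.05 with CpdA (1.27 ± 0.047, adjusted p = 6.7e-07), and NEDD9 at 58.5 and 56.2 with Dex and 20 and 18.04 with CpdA (1.59 ± 0.073, adjusted p = 2.2e-06). STK4, a Hippo kinase, stood at 10.2 and 11.6 with Dex and 12.3 and 12.2 with CpdA, a difference of -0.17 ± 0.064 with a 95% interval of -0.32 to -0.022 that did not pass (adjusted p = 0.075). By reverse transcriptase PCR the study found STK4 lowered by Dex and unchanged by CpdA, so its assay and comparison were not those used here. The study took these 5 genes up for their known roles in cancer, to follow up its own RNA and binding data. They are therefore not an independent test of the contrast.

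Calls of genes with low RPKM, or close to the 2-fold limit such as NR3C1 and AHR, depended on the pseudocount. With 1 in place of 0.1 the following named genes fell below 2-fold: MT1M, CCL2, CSF2, DUSP8, SPRY1, PFKFB3, INHBA, EDNRA, TGFA, BMF, FOXO1, NUAK2, NR3C1, FOSB, EGR3, ARC, CXCR4, TNS4, DGAT2, NLRP3, LUCAT1, SNORD83B, SNORA6, BOK-AS1, HECW2, PCNA-AS1, AHR and IRAK3.

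To tell which ligand had moved each gene, the called genes were set beside vehicle in a fit of all 10 libraries, at an FDR under 0.05 and a fold change of more than 1.5. Over all genes tested, Dex raised 3.72% and lowered 4.99%, and CpdA raised 1.42% and lowered 2.15%. Of the 330 genes higher with Dex, 265 (80.3%) were raised by Dex with CpdA not called. A further 20 were raised by Dex and lowered by CpdA, 8 were raised by both, 23 were lowered by CpdA with Dex not called, 2 were lowered by both, and 12 were called for neither ligand. The count of 265 was 225 at a 2-fold limit against vehicle and 186 at any fold. The comparisons of both ligands share the 2 vehicle libraries, and the contrast shares the treated ones, so the counts describe the contrast and do not test it. The 2 vehicle libraries were also named for different times, so these comparisons are not fully matched in time.

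KDR, CSF3, ANGPTL4 and FAM46B led the genes raised by Dex and lowered by CpdA. FAM46B stood at 33.4 and 31.1 with Dex, 2.59 and 2.67 with CpdA and 5.33 and 3.33 in vehicle (3.57 ± 0.062). TNS4, a focal adhesion protein, led those lowered by CpdA alone, at 1.09 and 0.992 with Dex, 0.228 and 0.177 with CpdA and 0.757 and 0.6099 in vehicle (1.92 ± 0.16), beside DGAT2 above and NLRP3, an inflammasome sensor (1.76 ± 0.19). SPRY4-IT1, a noncoding transcript within SPRY4, was in this class too (1.88 ± 0.28), and its reads cannot be told apart from those of its host where the counting ignored strand. CXCR4, the chemokine receptor of metastasis, was lowered by both ligands and less by Dex, at 3.56 and 3.09 with Dex, 1.44 and 1.55 with CpdA and 6.15 and 5.56 in vehicle (1.101 ± 0.085). The 4 largest differences of the 12 genes called for neither ligand were in the small nucleolar RNAs SNORD59A, SNORD83B and SNORA6 and the antisense gene BOK-AS1, with RPKM values under 2 in all 6 libraries. Without CpdA 4 h replicate 2, SNORA6 (1.17, adjusted p = 0.072 in limma) and BOK-AS1 (0.9999) were not called.

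Of the 224 genes higher with CpdA, 131 (58.5%) were lowered by Dex with CpdA not called, among them IL6, CYP1A1, IER3 and KRTAP2-3. Raised by CpdA with Dex not called were 47, led by HSPA6, HSPA1A and HSPA1B, and 26 were both lowered by Dex and raised by CpdA, led by IL11, NR4A3, DUSP2 and HMOX1. That count of 26 was 6 at a 2-fold limit against vehicle and 60 at any fold. At these limits the 131 lowered by Dex with CpdA not called were 110 and 99. The 23 genes higher with Dex and lowered by CpdA alone were 14 and 15. DUSP2 stood at 0.329 and 0.275 with Dex, 4.61 and 5.32 with CpdA and 0.973 and 0.823 in vehicle, so vehicle lay between the ligands. Lowered by both were 8 genes, including CCL2 and ENC1, a BTB protein that binds actin, which stood at 9.78 and 10.6 with Dex, 33.5 and 33.1 with CpdA and 70.2 and 45.6 in vehicle (-1.699 ± 0.045). ARC, a synaptic immediate early gene, was the 1 gene raised by both ligands with the higher level under CpdA, at 0.401 and 0.417 with Dex, 1.06 and 1.39 with CpdA and 0.0529 and 0.111 in vehicle (-1.37 ± 0.17). The last 11 were called for neither ligand, among them EGR3, whose vehicle libraries stood at 1.05 and 0.0983 and whose own call was lost in the fit of all 10 libraries (adjusted p = 0.12 in limma), and LUCAT1 (-1.21 ± 0.21, 95% interval -1.701 to -0.72), which was not called without Dex 4 h replicate 1 (-0.91). MIR30C2 was listed at 0 in both Dex libraries and at 0.703 and 0.932 with CpdA, and short RNAs are poorly captured by libraries of this kind.

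**Figure D4:**
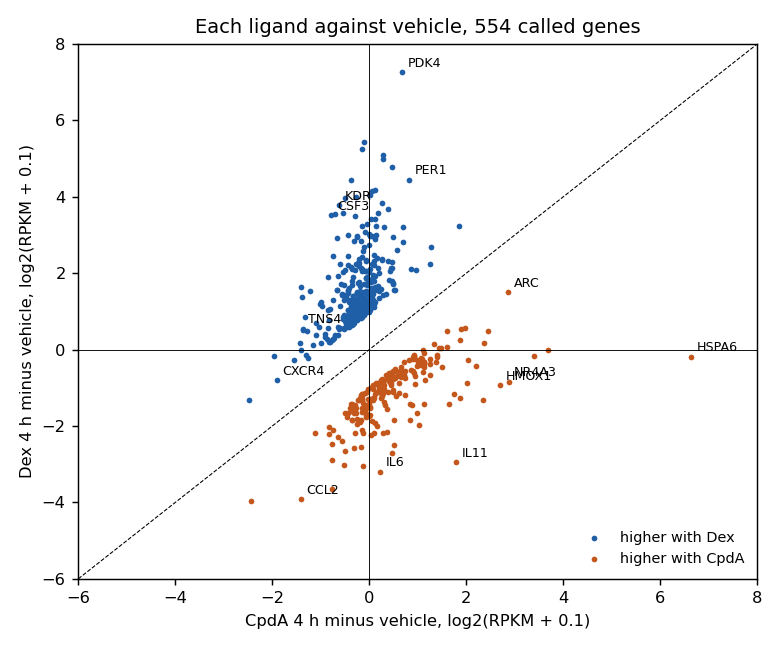
Difference from vehicle of the 554 called genes at 4 h, for CpdA on the horizontal axis and Dex on the vertical axis, both on the scale log2(RPKM + 0.1), with blue for called higher with Dex and orange for called higher with CpdA. Both axes share the 2 vehicle libraries. Blue points rise along the vertical axis near a CpdA value of 0, and orange points form a band from lowered by Dex (IL6, CCL2) to raised by CpdA (HSPA6). The empty strip along the dashed line of equal change follows from the 2-fold limit.

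The same contrast at 2 h called 171 genes higher with Dex (1.35%) and 126 higher with CpdA (0.991%). Of the genes higher with Dex, 150 were called at both times, which is 45.5% of the 4 h list and 87.7% of the 2 h list, and of the genes higher with CpdA 94 were, which is 42.0% and 74.6%. No gene was called in opposite directions. When the change between times was tested as an interaction (FDR under 0.05 and more than 1 on the log2 scale), 77 genes (0.606%) moved towards Dex from 2 h to 4 h and 47 (0.37%) towards CpdA. Of the 77, 64 were called higher with Dex at 4 h and 5 higher with CpdA, and of the 47, 38 were called higher with CpdA and 2 higher with Dex.

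ALOX15B widened the most of the named genes on the Dex side. Its RPKM was 0.392 and 0.498 at Dex 2 h and 4.95 and 4.69 at Dex 4 h, so that the difference went from 2.19 to 5.54 (interaction 3.34 ± 0.26, adjusted p = 0.00069). SGPP2 went from 1.98 to 4.098. PDK4, with the largest difference among genes higher with Dex at 4 h, had stood higher at 2 h (70.4 and 69.4 at Dex 2 h, difference 7.58), but its interaction of -0.99 did not pass 1 on the log2 scale. BIRC3 narrowed, from 52.8 and 55.6 at Dex 2 h to 36.7 and 43.03, and its difference from 3.22 to 2.21 (interaction -1.005 ± 0.10, adjusted p = 0.0016). NEDD9 widened from 0.49 to 1.59 (adjusted p = 0.0012).

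On the CpdA side, the differences of HSPA6, HMOX1 and SLC7A11 widened and those of the NR4A receptors narrowed. HSPA6 stood at 11.6 and 13.8 at CpdA 2 h and 43.6 and 54.4 at 4 h, and its difference went from -4.62 to -6.83 (interaction -2.204 ± 0.19, adjusted p = 0.00097). HMOX1 stood at 42.3 and 43.8 and then at 100.2 and 105 (-2.15 to -3.63), and SLC7A11 went from a difference of -0.04 to -1.696. In contrast NR4A1 stood at 26.9 and 30.3 at CpdA 2 h and 7.3 and 8.54 at 4 h (-4.28 to -1.98, interaction 2.31), and NR4A2 went from -5.04 to -3.07 and NR4A3 from -5.13 to -3.71. IL6 narrowed as well, from -5.33 to -3.42 (adjusted p = 0.00018). ARC was below 2-fold at 2 h, on the Dex side (0.93) and higher with CpdA at 4 h (-1.37), and NAV3, a neuron navigator, and PDE7B, a cAMP phosphodiesterase, went from -0.22 and -0.23 at 2 h to -2.54 and -2.55.

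**Figure D5:**
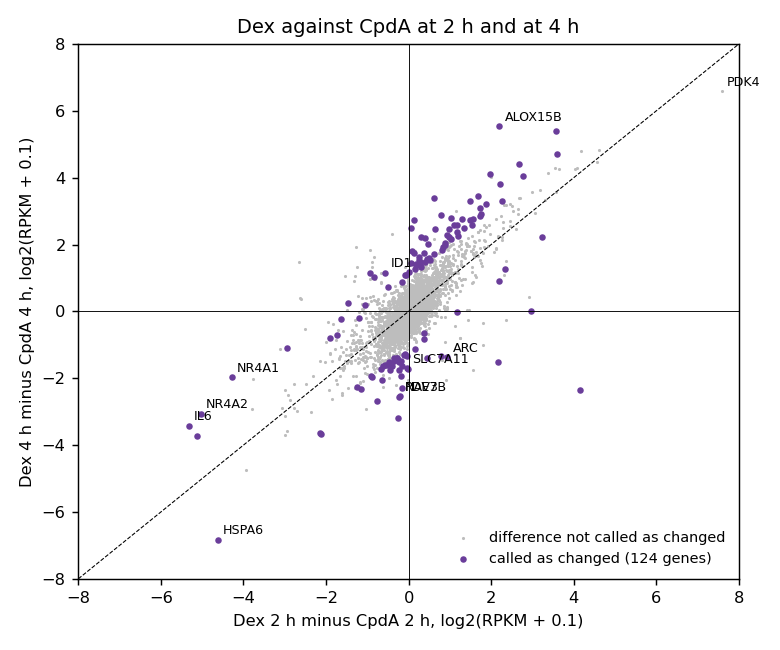
Dex minus CpdA difference at 2 h (horizontal) and 4 h (vertical) for 12713 genes on the scale log2(RPKM + 0.1), with the 124 genes whose difference changed between the times in purple and the others in grey. The dashed line marks no change. ALOX15B lies above it (2.19 at 2 h, 5.54 at 4 h), HSPA6 below it (-4.62 and -6.83), and NR4A1 lies nearer 0 at 4 h (-4.28 and -1.98).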

How the data were processed

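The authors sequenced RNA of MDA-MB-231 cells as single-end Illumina reads (TruSeq kit), aligned them with TopHat 2.0.13 and estimated abundances in Partek Genomics Suite 6.6. The deposited values are RPKM per gene symbol, 1 file for each of 10 libraries, and the submitters' processing notes name hg19. Strandedness and the joining of transcripts into symbols are not given in the sources used here. The 12 ChIP samples were not used. A few genes that the rule below would name are not reported here.

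RPKM was analysed as log2(RPKM + 0.1) without further normalization. The 8 ligand-treated libraries were fitted as 4 groups with limma 3.58.1 in R 4.3.3 (eBayes with an abundance trend, 4 residual degrees of freedom), tested on simulated data, and Benjamini-Hochberg adjusted over 12713 genes. Called genes had an adjusted p under 0.05 and differed by more than 2-fold. Comparisons with vehicle used all 10 libraries in 5 groups. The interaction was the 4 h minus the 2 h difference. Tables and figures used Python 3.11.15, pandas 2.3.3 and matplotlib 3.10.9.

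Members and lists were chosen with earlier results of these data known. Named genes were the 15 largest called differences per direction (RPKM of at least 1 in the higher group, no short RNAs), up to 4 per direction of each list and members a list needed, the genes the study followed with NR3C1, the 5 largest interactions per direction, and up to 4 per vehicle class. Genes outside these groups, NPR3 and those of the closing observations, were chosen after their values were seen. Gene coordinates are GENCODE v44 lifted to GRCh37. Promoter windows were the 250 bases before RefSeq starts (GRCh38.p14), available for 9358 genes tested. Alternatives varied the pseudocount, filter, normalization, libraries fitted, variance model, block, fold limit and each library.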

Additional observations from a re-analysis of the deposited data

Results flagged for a closer look

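The difference between the ligands itself differed between the 2 time points for 77 genes above 0 and 47 below 0, by the interaction test in limma (values are the 4 h difference minus the 2 h difference, log2 scale). Among the genes named here, those above 0 were ALOX15B (3.34), NR4A1 (2.31), SGPP2 (2.12), PCNA-AS1 (2.11), NR4A2 (1.98), IL6 (1.91), EGR1 (1.84), ZDHHC8P1 (1.82), KDR (1.72), ID1 (1.72), CALCR (1.596), NR4A3 (1.41), CDKN1C (1.35), TNFAIP8L3 (1.29), EDN1 (1.25), DUSP1 (1.20), NPR3 (1.15), TLR2 (1.13), NEDD9 (1.10) and FKBP5 (1.10). For NR4A1, NR4A2, NR4A3, IL6 and EGR1 a value above 0 means a smaller excess with CpdA at 4 h, and for the other 15 genes it moved the difference towards Dex.

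Those below 0 were MIR3655 (-6.50), NAV3 (-2.33), PDE7B (-2.32), ARC (-2.30), HSPA6 (-2.20), SLC7A11 (-1.66), DUSP2 (-1.52), HECW2 (-1.49), HMOX1 (-1.48), TNFSF10 (-1.07), SDF2L1 (-1.05), SRXN1 (-1.04), FAM46C (-1.01), FST (-1.01) and BIRC3 (-1.005). BIRC3 had a smaller excess with Dex at 4 h. MIR3655 was read at 0.000138 and 0.0392 with Dex and 0.0694 and 2.05 with CpdA at 4 h. Its 4 h difference thus rests largely on 1 CpdA library and was not called (-2.35, adjusted p = 0.12). Its value of -6.50 also rests on the 2 h libraries, which are not shown for this gene. PCNA-AS1 overlaps PCNA on the opposite strand, had 3.46 and 4.45 with Dex and 2.38 and 1.2 with CpdA, and was not called higher with Dex without Dex 4 h replicate 2 (0.98) or CpdA 4 h replicate 2 (0.69).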

How the results depend on the processing

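The counts moved most with the limit and the pseudocount. At a fold change of 1.5 instead of 2, 662 genes were higher with Dex and 604 with CpdA, and with a pseudocount of 1 these were 218 and 146. Other settings gave 225 to 368 and 158 to 265 genes, and no call changed direction in any of the 16 alternative fits. Leaving out 1 library at a time gave 328 to 347 genes higher with Dex and 226 to 265 higher with CpdA, 2804 to 5864 genes at any fold, and 93 to 175 genes whose difference changed with time. The last count was 61 with a pseudocount of 1, 62 with an RPKM of at least 1 in all 4 libraries and 80 without moderation of the variance. Genes higher with Dex and lowered by CpdA alone numbered 14 at a 2-fold limit against vehicle and 15 at any fold (23 at 1.5), and genes lowered by Dex and raised by CpdA 6 and 60 (26 at 1.5). With the replicate number as a block, 330 and 226 genes were called and 5181 passed at any fold. Deviations from group means correlated between -0.057 and 0.198 over the 10 pairs of groups. These low values do not settle whether the replicate numbers pair the samples. Of 2609 values of 166 named genes, 2543 kept their side of the threshold, 65 lost the call and 1 gained it, most often with a pseudocount of 1. No time contrast was run on the 4 libraries alone, which hold no 2 h samples. The cause of these shifts was not tested. With 2 libraries per group and no read totals, differences of rarely read genes are the least certain.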

Other observations

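The genes of this section were picked after their values were seen and support nothing beyond their own values. TLR2, which recognizes bacterial lipoproteins, stood at 32.4 and 34.05 with Dex, 4.42 and 4.63 with CpdA and 6.72 and 7.23 in vehicle (2.85 ± 0.053, adjusted p = 3.7e-08). TLR4, the endotoxin receptor, stood at 5.59 and 6.36 with Dex, 2.21 and 2.37 with CpdA and 4.495 and 4.38 in vehicle (1.34 ± 0.08), and its CpdA values lay below vehicle (-0.92). IL1R1, the signalling receptor for IL-1, stood at 20.7 and 22.2 with Dex, 2.44 and 2.702 with CpdA and 2.895 and 2.94 in vehicle (3.01 ± 0.084), and IRAK3, which dampens signalling from these receptors, at 0.6396 and 0.8604 with Dex, 0.1497 and 0.149 with CpdA and 0.206 and 0.228 in vehicle (1.76 ± 0.20), although IRAK3 was not called with a pseudocount of 1. CALCR, the calcitonin receptor, stood at 10.7 and 11.3 with Dex, 0.724 and 0.6696 with CpdA and 0.935 and 0.831 in vehicle (3.8 ± 0.088).

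Adhesion and cytoskeleton genes higher with Dex included ITGA5, the fibronectin receptor subunit, at 169 and 178 with Dex against 37.7 and 37.96 with CpdA (2.19 ± 0.044), and RHOB, a small GTPase, at 66.2 and 66.5 with Dex against 7.34 and 7.41 with CpdA (3.15 ± 0.034). The transcription factors KLF7 and KLF13 differed by 2.22 ± 0.089 and 1.52 ± 0.069, beside KLF9 and KLF15 above.

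TXNIP, which curbs glucose uptake and thioredoxin, was higher with Dex at 380.5 and 403 with Dex against 159 and 155 with CpdA, with vehicle at 112 and 113 (1.32 ± 0.045). ARRDC3 and ARRDC4, its relatives, were higher with CpdA: ARRDC3 stood at 3.49 and 4.36 with Dex, 15.3 and 14.9 with CpdA and 9.05 and 8.88 in vehicle (-1.92 ± 0.099), and ARRDC4 at 0.962 and 0.9803 with Dex, 3.68 and 3.89 with CpdA and 1.91 and 1.93 in vehicle (-1.86 ± 0.076), so vehicle lay between the ligands for both. Of the other relatives, ARRDC2 was higher with Dex (1.94 ± 0.051) and ARRDC1 differed by 0.69 ± 0.085, below 2-fold.

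Genes of the aryl hydrocarbon receptor, a sensor of dioxin-like compounds, were on both sides. AHR itself stood at 11.04 and 13.4 with Dex, 24.7 and 25.2 with CpdA and 30.7 and 24.9 in vehicle (-1.03 ± 0.083), and was not called without Dex 4 h replicate 1 (-0.89). CYP1B1 stood at 51.02 and 69.1 with Dex, 162 and 175 with CpdA and 187 and 171 in vehicle (-1.51 ± 0.14), in the direction of CYP1A1. TIPARP, another AHR target that several other signals induce, was higher with Dex at 86.2 and 98.1 with Dex against 41.7 and 40.9 with CpdA (1.15 ± 0.062).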
